A study of Mus musculus with 52 samples.

Results

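Frontal cortex of female mice with amyloid plaques and human APOE4 was compared with that of female mice with amyloid plaques and human APOE3, all of them fed a Western high-fat diet (HFD). The libraries were those whose labels give genotype APP/E4 or APP/E3, diet HFD and gender F, which held for 15 of the 52 libraries in the series, 7 of APP/E4 and 8 of APP/E3. Every mouse in both groups carried the APP/PS1ΔE9 transgenes, known to raise amyloid production and to be driven by the prion protein promoter. APP/E4 mice had both copies of Apoe exchanged for human APOE4, and APP/E3 mice had both copies exchanged for human APOE3. These are separate targeted replacement lines, so the allele and any other difference between the lines cannot be told apart. In the HFD, milk fat and corn oil supplied 40% of the calories, protein 16.8% and carbohydrate 42.6%, and mice were 3.5 months old on average when the 3 months of feeding began. The labels also give a mean age of 14.7 months for behavioural testing, and the age of each animal at dissection is not given in the sources used here. The series asked how diet, APOE genotype and sex shape the immune response in mice with amyloid.

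Apolipoprotein E carries lipids between brain cells, is made mostly by astrocytes and by microglia near plaques, and its E4 form is the strongest common genetic risk factor for late-onset Alzheimer disease. Microglia that meet plaques lower their homeostatic genes and raise a set of phagocytic, lysosomal and lipid genes through the receptor Trem2 and its adapter Tyrobp. Astrocytes near plaques take on a reactive state in which the serine protease inhibitor gene Serpina3n and the filament gene Gfap are raised.

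The libraries held 7.29 to 11.2 M counts (M, 1e6) in APP/E4 and 7.02 to 10.4 M in APP/E3, so that 3 counts corresponded to 0.281 to 0.423 counts per 1e6 counts (CPM, scaled with TMM factors throughout). Markers of cortex were present in all 15 libraries, with the glutamate transporter gene Slc17a7 at 972 to 1798 CPM in APP/E4 and 1193 to 1705 CPM in APP/E3 and the microglial receptor gene Cx3cr1 at 80.1 to 108.8 and 67.8 to 106.3 CPM. The libraries fell into 2 classes that the labels do not name. In 2 of 7 APP/E4 and 5 of 8 APP/E3 libraries the citrate synthase relative Csl was at 0.0936 to 0.219 CPM, and in the others at 12.97 to 15.8 CPM. The classes are split unequally between the genotypes and differed in 3467 genes (22.8%) in edgeR. The total count of calls is therefore given below without and with this read class as a term. Values of single genes and lists come from the fit without it unless stated.

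Single libraries also stood apart in genes of neighbouring tissues. The olfactory bulb genes Omp and Doc2g reached 123 and 205 CPM in APP/E4 female 4, against medians of 0.897 and 12.7 CPM in APP/E4 and 0.961 and 8.97 CPM in APP/E3. The choroid plexus transthyretin gene Ttr reached 2402 CPM in APP/E3 female 6 and exceeded 100 CPM in 3 APP/E4 libraries. The 17 striatal genes tested summed to 404 to 3504 CPM in APP/E4, with a median of 717 CPM. In APP/E3 they summed to 413 to 3490 CPM, with a median of 1979 CPM. All 17 were lower in APP/E4 with none called. These sums varied widely within both groups, and their part in the results was not tested beyond the counts given without single libraries.

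**Figure D1:**
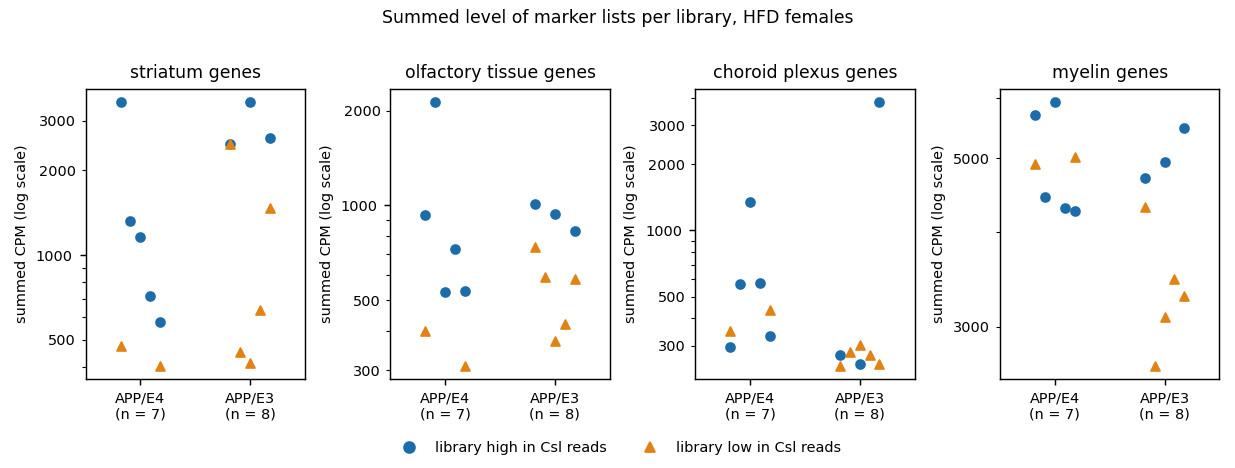
Summed CPM (log axis) of the striatum, olfactory tissue, choroid plexus and myelin lists in each library of APP/E4 HFD females (left, n = 7) and APP/E3 HFD females (right, n = 8). Circles are libraries high in Csl reads and triangles libraries low in Csl reads. One APP/E4 library stands highest in olfactory genes (2134 CPM), one APP/E3 library in choroid plexus genes (3829 CPM), and the lowest sums of myelin genes are those of APP/E3 libraries low in Csl reads.

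In HFD females, APP/E4 cortex held more RNA of 3 neighbouring serpin genes, of the microglial genes Clec7a, Cst7, Itgax and Mpeg1, of the lysosomal protease gene Ctsd and of the kinase gene Fyn than APP/E3 cortex, and less of Wdfy1, Ighg2c and Gm20186. Of 15195 genes tested, edgeR called 92 at an adjusted p under 0.05 (0.605%), 56 higher (0.369%) and 36 lower (0.237%) in APP/E4. The median absolute log2 difference of the 92 was 0.54, and 23 exceeded 1, of which 18 were higher. The median over all genes tested was 0.0021. With read class as a term 154 genes were called (1.01%), 81 higher and 73 lower, and 80 of them were among the 92. The 12 others of the 92 were not called with that term, among them Ctss, Fcrls, Col28a1, Eepd1, Plek, Plk2 and Apmap. All 92 had the same sign within both read classes, which is a description, since the same libraries chose them. Within the libraries high in Csl edgeR called 33 genes (0.217%) and within those low in Csl 15 (0.0987%). Fitted to the 15 libraries alone it called 33 (0.233%), of which 32 were among the 92. Without the 4 libraries over 100 CPM of Ttr it called 41 (0.269%), of which 37 were.

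Serpina3n, on chromosome 12, encodes a protease inhibitor that reactive astrocytes secrete. It stood at 62.9 to 152 CPM in APP/E4 with a median of 102 CPM, and at 10.3 to 23.8 CPM in APP/E3 with a median of 17.7 CPM. The lowest APP/E4 library lay well above the highest APP/E3 library. The log2 difference was 2.68 ± 0.23 (SE), a 6.41-fold level in APP/E4 (edgeR adjusted p = 5.36e-12), and within the read classes it was 2.48 in libraries high in Csl and 2.57 in libraries low in Csl. Its neighbours Serpina3m and Serpina3h, of the same inhibitor family, rose as well. Serpina3m had 275 counts over the 7 APP/E4 libraries and 2 counts over the 8 APP/E3 libraries, a depth-scaled ratio of 166 with an exact 95% interval of 45.5 to 1378 that covers counting error only, and Serpina3h averaged 1.22 ± 0.64 CPM in APP/E4 (SD, n = 7) and 0.138 ± 0.125 CPM in APP/E3 (SD, n = 8; log2 difference 3.05 ± 0.54, adjusted p = 5.73e-04). These paralogs are close copies that can share reads, so the split of counts among them is uncertain.

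The 250 bases before the start of Serpina3n are shown because this gene had the smallest adjusted p among genes above 10 CPM. RefSeq places them at chr12:104406458-104406707 on the plus strand of GRCm38.p6, which is not the build of the counts.
Serpina3n: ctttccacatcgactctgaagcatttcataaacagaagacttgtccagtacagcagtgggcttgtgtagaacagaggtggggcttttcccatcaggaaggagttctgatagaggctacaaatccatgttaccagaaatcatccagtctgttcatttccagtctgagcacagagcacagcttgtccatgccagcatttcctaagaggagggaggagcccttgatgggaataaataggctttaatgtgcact
Neither GAAANNGAAA, the core of the interferon-stimulated response element, nor TGATGNAA, the core of the C/EBP-ATF response element, occurs there on either strand.

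Of the other reactive astrocyte genes none was called. The list had 23 members tested, 16 higher in APP/E4 with a median of 0.17, and Serpina3n was the only one called. Gfap stood at 225 to 324 CPM in APP/E4 with a median of 259 CPM and at 114 to 258 CPM in APP/E3 with a median of 214 CPM (log2 difference 0.40 ± 0.19, adjusted p = 0.396). The hyaluronan receptor gene Cd44 differed by -0.68 ± 0.29 (adjusted p = 0.322), with 4.10 ± 0.86 CPM in APP/E4 and 6.50 ± 3.92 CPM in APP/E3. The 21 astrocyte identity genes had a median of 0.05 and none was called. Their median was -0.12 within libraries high in Csl, with 4 higher, and 0.18 within libraries low in Csl, with 21 higher. That gap was not tested.

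**Figure D2:**
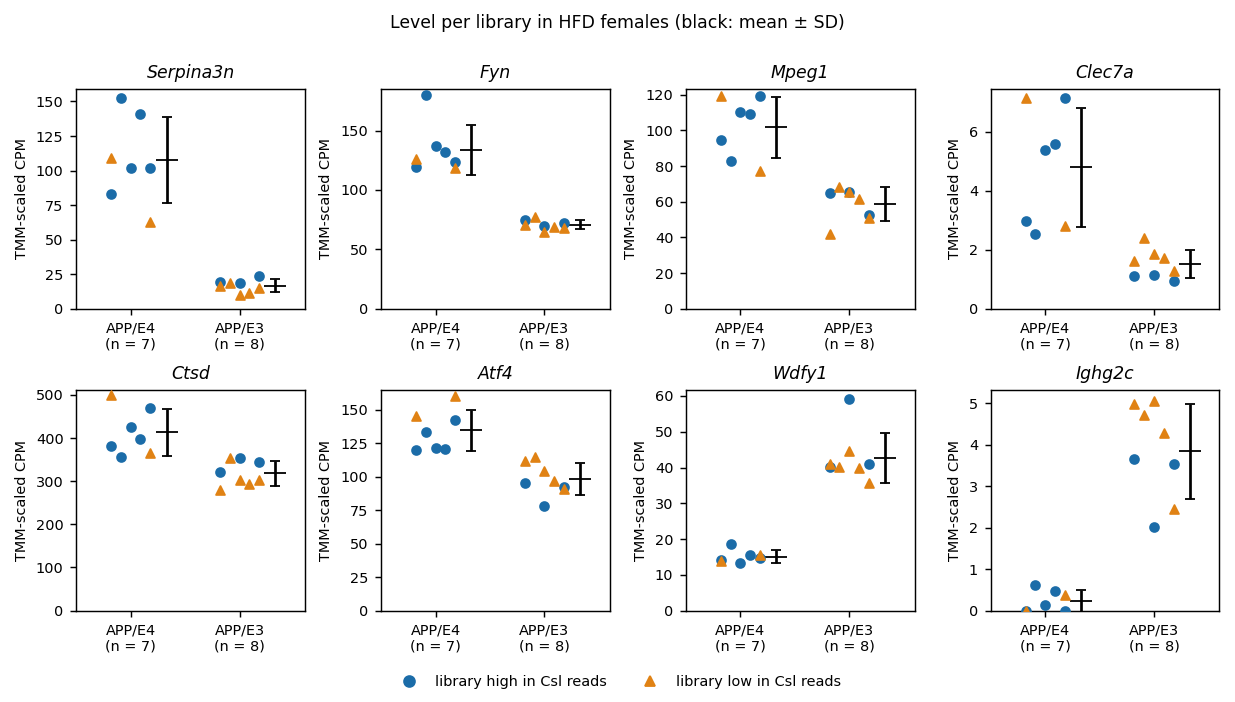
TMM-scaled CPM of 8 genes in each library of APP/E4 HFD females (left, n = 7) and APP/E3 HFD females (right, n = 8), with circles for libraries high in Csl reads, triangles for libraries low in Csl reads and black marks for mean ± SD. The groups do not overlap in any of the 8 panels, with the APP/E4 libraries above in the first 6 and below in Wdfy1 and Ighg2c. These 8 are not typical of the called genes, since only 30 of the 92 called genes had no overlap. Over all genes tested, 41 had none (0.27%).

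Genes that microglia raise around plaques were mostly higher in APP/E4. Of 34 members tested 29 were higher, with a median log2 difference of 0.32 against 0.0021 over all genes. Called were 5 (14.7%), all higher, against 0.369% of all genes tested called higher. This list and those below were chosen with earlier results of these data known, so such shares are descriptions. The summed level of the list was 3022 to 3818 CPM in APP/E4 and 3126 to 3323 CPM in APP/E3, a sum that a few abundant genes dominate. In bulk tissue a change in the number of microglia and a change in RNA per cell cannot be told apart.

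Clec7a, the receptor dectin-1 that binds fungal glucans and marks plaque-associated microglia, stood at 2.52 to 7.14 CPM in APP/E4 with a median of 5.38 CPM and at 0.944 to 2.41 CPM in APP/E3 with a median of 1.46 CPM. Its groups did not overlap, though 1 APP/E4 library lay close to the highest APP/E3 library. The log2 difference was 1.64 ± 0.29 (adjusted p = 7.68e-04) and 1.63 with read class as a term. Cst7, an inhibitor of lysosomal cysteine proteases, averaged 8.87 ± 3.49 CPM in APP/E4 and 2.87 ± 1.28 CPM in APP/E3 (log2 difference 1.62 ± 0.35, adjusted p = 0.00997). Its groups overlapped. Itgax, the integrin chain CD11c, averaged 3.71 ± 1.11 and 1.48 ± 0.33 CPM (1.33 ± 0.29, adjusted p = 0.0129), and the chemokine gene Ccl6 averaged 5.43 ± 1.39 and 2.51 ± 0.60 CPM without overlap (1.11 ± 0.19, adjusted p = 4.51e-04). Ctsd, the lysosomal protease cathepsin D, was the most abundant of the 5, at 355 to 500 CPM in APP/E4 with a median of 397 CPM and at 279 to 353 CPM in APP/E3 with a median of 312 CPM. The highest APP/E3 and the lowest APP/E4 library of Ctsd nearly met, and its log2 difference was 0.38 ± 0.07 (adjusted p = 0.00235), or 0.0797 as adjusted p in the fit to the 15 libraries alone.

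Fc receptor and phagocytosis genes were mostly higher as well. The Fc receptor and phagocytosis list had 16 genes tested, 14 of them higher at a median of 0.37. Called were 3 (18.8%), all higher, against 0.369% of all genes tested called higher. Mpeg1, the macrophage perforin, stood at 77.4 to 120 CPM in APP/E4 with a median of 109 CPM and at 41.7 to 68.4 CPM in APP/E3 with a median of 63.1 CPM. The groups did not overlap, and the log2 difference was 0.79 ± 0.14 (adjusted p = 4.51e-04), 0.76 within libraries high in Csl and 0.77 within libraries low in Csl. The adhesion receptor gene Cd84 (0.70 ± 0.16, adjusted p = 0.0246) and the integrin gene Itgb2 (0.55 ± 0.14, adjusted p = 0.0372) were called as well.

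The Trem2 and Tyrobp signalling chain gave small differences of one sign. All 21 genes tested were higher, with a median of 0.33. Itgb2 alone was called, and it is also a member of the Fc receptor and phagocytosis list. Trem2 averaged 26.01 ± 5.45 CPM in APP/E4 and 19.3 ± 2.98 CPM in APP/E3 (log2 difference 0.43 ± 0.14), and Tyrobp 29.4 ± 5.78 and 21.1 ± 2.39 CPM (0.48 ± 0.14). Neither passed, with adjusted p = 0.140 for Trem2 and 0.0890 for Tyrobp, and the groups overlapped in both.

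Homeostatic genes of microglia were mostly higher too in APP/E4. Among 19 tested, 16 were higher (median 0.21), and 2 were called, both higher (10.5%, against 0.369% of all genes tested). They were Gpr34, a lysophospholipid receptor gene (27.5 ± 4.52 CPM in APP/E4, 19.96 ± 3.15 CPM in APP/E3; log2 difference 0.46 ± 0.11, adjusted p = 0.0245), and Fcrls, an Fc receptor-like scavenger gene (0.41 ± 0.10, adjusted p = 0.0369, or 0.0521 with read class as a term). P2ry12 differed by 0.19 ± 0.09 and Cx3cr1 by 0.21 ± 0.10, and neither was called. Further microglial genes called higher were chosen for mention after their values were seen. The lysosomal protease gene Ctss differed by 0.44 ± 0.11 (adjusted p = 0.0453, or 0.0680 with read class as a term). Also among them were Ly86, a partner of a Toll-like receptor relative (0.49 ± 0.11, adjusted p = 0.0219), and the peptide transporter gene Slc15a3 (0.87 ± 0.20, adjusted p = 0.0246).

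Some of these calls lay near the threshold and others did not. Among the named calls, 32 of 62 held without each library in turn, among them Serpina3n, Clec7a, Cst7, Itgax, Ccl6, Ctsd, Mpeg1 and Fyn. The calls of Fcrls and Ctss were each lost when any one of 10 libraries was left out (adjusted p at most 0.114 and 0.134), that of Itgb2 for any one of 8 (0.102), those of Gpr34 and Cd84 for any one of 6 (0.0840 and 0.0820) and those of Ly86 and Slc15a3 for any one of 5 (0.0740 and 0.0857). Of the blood and neutrophil genes 9 of 9 tested were higher in APP/E4 (median 1.44) and none was called, and their summed level was 2.0 to 31.2 CPM in APP/E4 and 3.0 to 9.2 CPM in APP/E3. The library with the highest sum, APP/E4 female 4, had the lowest APP/E4 levels of Clec7a (2.52 CPM) and Cst7 (3.40 CPM). The APP/E4 library with the lowest sum, female 1, had the highest level of Cst7 (13.7 CPM). In contrast, APP/E4 female 7, with a high sum of 19.9 CPM, had high levels of Clec7a (7.14 CPM) and Cst7 (12.2 CPM). Whether blood had a part in these differences was not tested.

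Antigen presentation and interferon genes were mostly higher, and 1 was called. B2m, the light chain of class I molecules, stood at 125 to 205 CPM in APP/E4 with a median of 137 CPM and at 83.0 to 131 CPM in APP/E3 with a median of 105 CPM. Its groups overlapped narrowly (log2 difference 0.50 ± 0.11, adjusted p = 0.0172), and the call was lost when any one of 3 libraries was left out (adjusted p at most 0.0930). B2m was the only one called of 17 antigen presentation genes, whose median was 0.24 with 13 higher. Their median was 0.05 within libraries high in Csl, with 9 higher, 0.36 within libraries low in Csl and -0.06 in females on normal diet. Of 37 interferon response genes 36 were higher (median 0.39). None of the 37 was called in edgeR, and 15 had an unadjusted p under 0.05, all higher. Over all 15195 genes tested, 1828 had an unadjusted p under 0.05, 952 of them higher, so such counts within a list have a high background. The interferon median was 0.12 within libraries high in Csl and 0.40 within libraries low in Csl. Ifi27l2a had the smallest p of them, at 3.56 ± 2.04 CPM in APP/E4 and 1.63 ± 0.74 CPM in APP/E3 (1.12 ± 0.31, adjusted p = 0.0799). None of 18 complement or of 21 Toll-like receptor and cytokine genes was called (medians 0.22 and 0.39, with 6 and 7 at an unadjusted p under 0.05). Medians within libraries high in Csl and low in Csl were 0.05 and 0.31 for complement, 0.15 and 0.42 for Toll-like receptors and cytokines, 0.16 and 0.34 for plaque-induced microglial genes and 0.18 and 0.44 for the Trem2 and Tyrobp chain. These gaps between the classes were not tested.

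The promoters of B2m and Ctss are shown because both genes were called and both windows hold the interferon-stimulated core GAAANNGAAA, in capitals. With read class as a term, B2m was called and Ctss was not. The matches lie on the plus strand of GRCm38.p6, in windows at chr2:122147437-122147686 and chr3:95526536-95526785.
B2m: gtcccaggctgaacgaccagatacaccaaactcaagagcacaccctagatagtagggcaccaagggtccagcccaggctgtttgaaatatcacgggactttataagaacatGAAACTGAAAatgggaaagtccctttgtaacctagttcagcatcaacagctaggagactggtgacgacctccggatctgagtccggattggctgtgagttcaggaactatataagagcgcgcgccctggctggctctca
Ctss: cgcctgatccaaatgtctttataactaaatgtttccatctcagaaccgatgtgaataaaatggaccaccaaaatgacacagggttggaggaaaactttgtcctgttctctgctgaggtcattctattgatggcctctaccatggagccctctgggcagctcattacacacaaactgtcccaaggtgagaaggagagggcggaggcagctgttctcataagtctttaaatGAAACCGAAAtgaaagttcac
The match lies 139 to 130 bases before the start in B2m and 21 to 12 bases before it in Ctss. The core occurred in 4 of the 63 called genes with a listed promoter, the others being Eps8l1 and Plk2, in 2.45% of the 11655 tested genes with one and in 3.04% of all 27025 promoters, counted on both strands. These matches are descriptions of letters, not of bound sites.

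**Figure D3:**
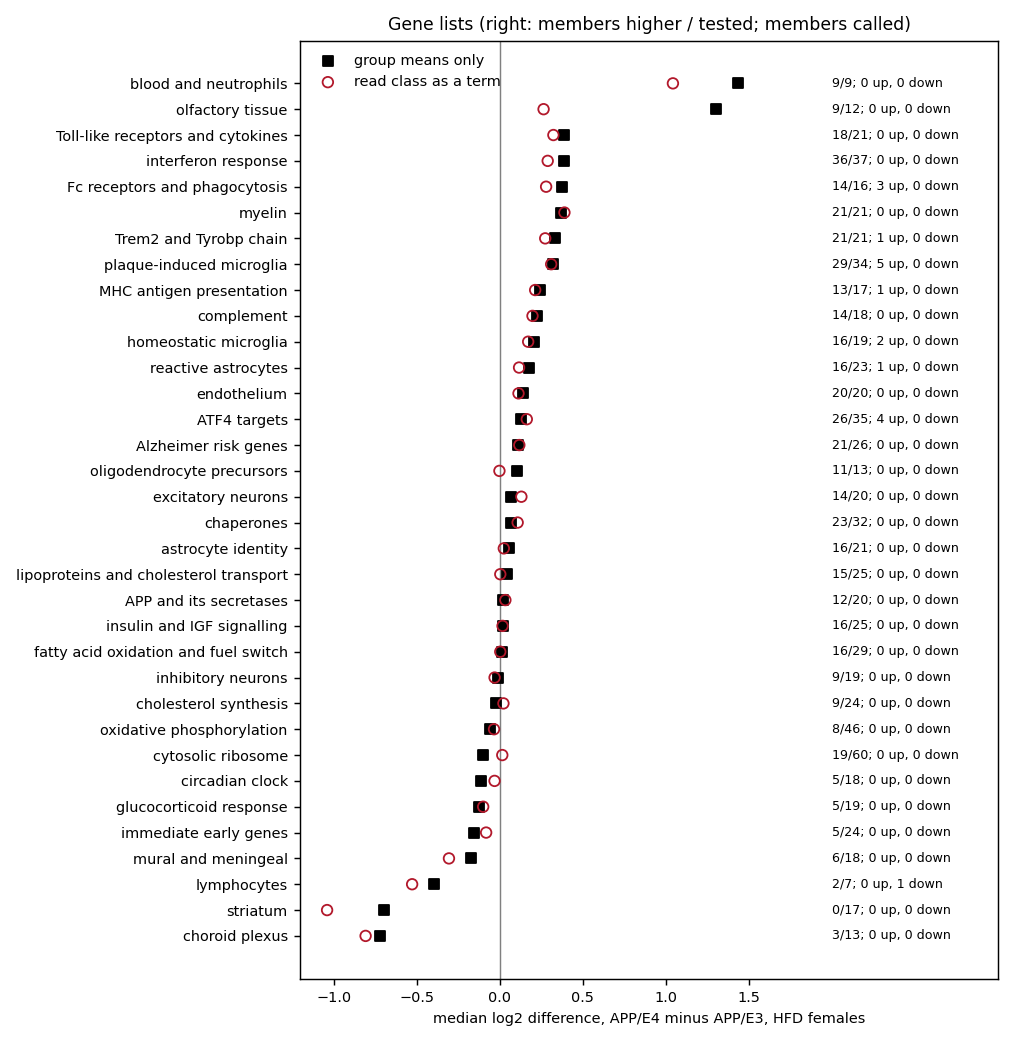
Median log2 difference, APP/E4 minus APP/E3, of each gene list in HFD females, with group means only (squares) and with read class as a term (open circles), and at the right the members higher of those tested and the members called higher (up) and lower (down). The grey line is the median over all genes, 0.0021. Microglial, phagocytic and interferon lists lie between 0.21 and 0.39 in the fit without read class, and the striatum list lies at -0.70 without and -1.04 with it.

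Myelin genes had unlike differences in the 2 read classes, a gap that was not tested. All 21 tested were higher in APP/E4 with a median of 0.37, and none was called. At an unadjusted p under 0.05 were 11 of the 21, against 1828 of the 15195 genes tested. Mag, the myelin-associated glycoprotein gene, stood at 125 to 200 CPM in APP/E4 and at 61.9 to 147 CPM in APP/E3 (0.46 ± 0.21, adjusted p = 0.374). The median was 0.06 within libraries high in Csl and 0.58 within libraries low in Csl, which compare 2 APP/E4 with 5 APP/E3 libraries.

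Atf4 and some of the genes that it is known to induce under amino acid shortage and stress were called higher in APP/E4. Atf4, the transcription factor, stood at 120 to 160 CPM in APP/E4 with a median of 133 CPM and at 77.7 to 115 CPM in APP/E3 with a median of 95.9 CPM. The groups did not overlap, and the log2 difference was 0.46 ± 0.12 (adjusted p = 0.0498), or 0.58 with read class as a term (adjusted p = 8.62e-04). In the fit without read class, its call was lost when any one of 12 libraries was left out (adjusted p at most 0.106). A list of 35 genes, Atf4 itself and such genes, was put together after their values were seen, so its counts are a description. It had 26 higher with a median of 0.13. Called higher were 4, and 6 with read class as a term, against 0.369% and 0.533% of all genes tested. Besides Atf4 the 4 were Pmaip1, a pro-apoptotic BH3 gene (4.16 ± 1.57 CPM in APP/E4, 1.84 ± 0.64 CPM in APP/E3; 1.16 ± 0.26, adjusted p = 0.0129), Mthfd2, a mitochondrial enzyme of one-carbon metabolism (0.65 ± 0.15, adjusted p = 0.0152), and Chac1, which degrades glutathione (0.53 ± 0.13, adjusted p = 0.0466). The call of Chac1 was lost when any one of 9 libraries was left out (adjusted p at most 0.122), that of Pmaip1 for any one of 2 (0.0568) and that of Mthfd2 for 1 (0.0561). The tRNA synthetase genes Cars and Nars were called with read class as a term alone (0.40, adjusted p = 0.00709, and 0.25, adjusted p = 0.0215).

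The promoter of Chac1 is shown because it holds the C/EBP-ATF core, read on the minus strand as the capitals TTGCATCA, at chr2:119350992-119351241 of GRCm38.p6, plus strand.
Chac1: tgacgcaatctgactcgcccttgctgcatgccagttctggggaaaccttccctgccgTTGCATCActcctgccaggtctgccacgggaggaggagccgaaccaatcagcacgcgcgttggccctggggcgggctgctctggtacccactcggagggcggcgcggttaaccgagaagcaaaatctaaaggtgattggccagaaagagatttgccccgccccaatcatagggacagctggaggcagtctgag
The match lies 193 to 186 bases before the start. TGATGNAA occurred in 3 of the 63 called genes with a listed promoter, Chac1, Plek and Prps1, in 1.96% of the tested genes with one and in 3.53% of all promoters.

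Large differences lay also at single genes of other roles. Fyn, a Src family kinase of neurons and oligodendrocytes, stood at 119 to 180 CPM in APP/E4 with a median of 126 CPM and at 64.9 to 77.2 CPM in APP/E3 with a median of 70.1 CPM. All APP/E4 libraries lay above all APP/E3 libraries (log2 difference 0.92 ± 0.09, adjusted p = 2.88e-10). Fyn was named after its values were seen, as were Mfn2, Tardbp and Gba2. Mfn2, which fuses mitochondria (0.24 ± 0.04), and the RNA-binding protein gene Tardbp (0.23 ± 0.05) rose, and Gba2, which breaks down glucosylceramide outside the lysosome, fell by 0.24 ± 0.05 on the log2 scale (adjusted p = 0.00155, 0.0229 and 0.00613). The call of Tardbp was lost when any one of 3 libraries was left out (adjusted p at most 0.0686).

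Eps8l1, an actin adapter gene on chromosome 7, stood at 4.30 to 11.5 CPM in APP/E4 with a median of 5.54 CPM and at 0.0960 to 1.07 CPM in APP/E3 with a median of 0.318 CPM. The groups did not overlap (4.08 ± 0.39, adjusted p = 1.99e-10). On chromosome 7 the neighbouring gene D630041G03Rik rose (2.46 ± 0.25) and its neighbour Rdh13, a mitochondrial retinol dehydrogenase gene, fell by 0.60 ± 0.09 on the log2 scale (adjusted p = 9.90e-10 and 1.52e-05). The phosphatase gene Ptprh (2.97 ± 0.32), Oscar, a collagen receptor gene of osteoclasts (3.29 ± 0.39), and Tmc4 (1.47 ± 0.29), also on chromosome 7, rose too (adjusted p = 4.00e-09, 9.22e-08 and 0.00305).

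Among genes lower in APP/E4, Wdfy1, which is known to take part in Toll-like receptor signalling, stood at 13.3 to 18.6 CPM in APP/E4 with a median of 14.8 CPM and at 35.8 to 59.3 CPM in APP/E3 with a median of 40.5 CPM. The groups were far apart (-1.50 ± 0.24, adjusted p = 1.70e-04). Gm20186 had 0 counts in all 7 APP/E4 libraries and 14 to 34 counts in each APP/E3 library, at least 49.7-fold lower in APP/E4 against a floor of 3 counts over the group. Ighg2c, an immunoglobulin heavy chain constant gene that can share reads with its close relatives, had 0 to 5 counts per APP/E4 library and 16 to 52 per APP/E3 library (-3.99 ± 0.45, adjusted p = 2.05e-08). Lower too were the vitamin B12 receptor subunit gene Amn (-1.27 ± 0.22), the deoxycytidylate deaminase gene Dctd (-0.83 ± 0.17) and Pon2, an antioxidant lactonase gene (-0.49 ± 0.09), with adjusted p = 4.51e-04, 0.00651 and 7.68e-04.

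**Figure D4:**
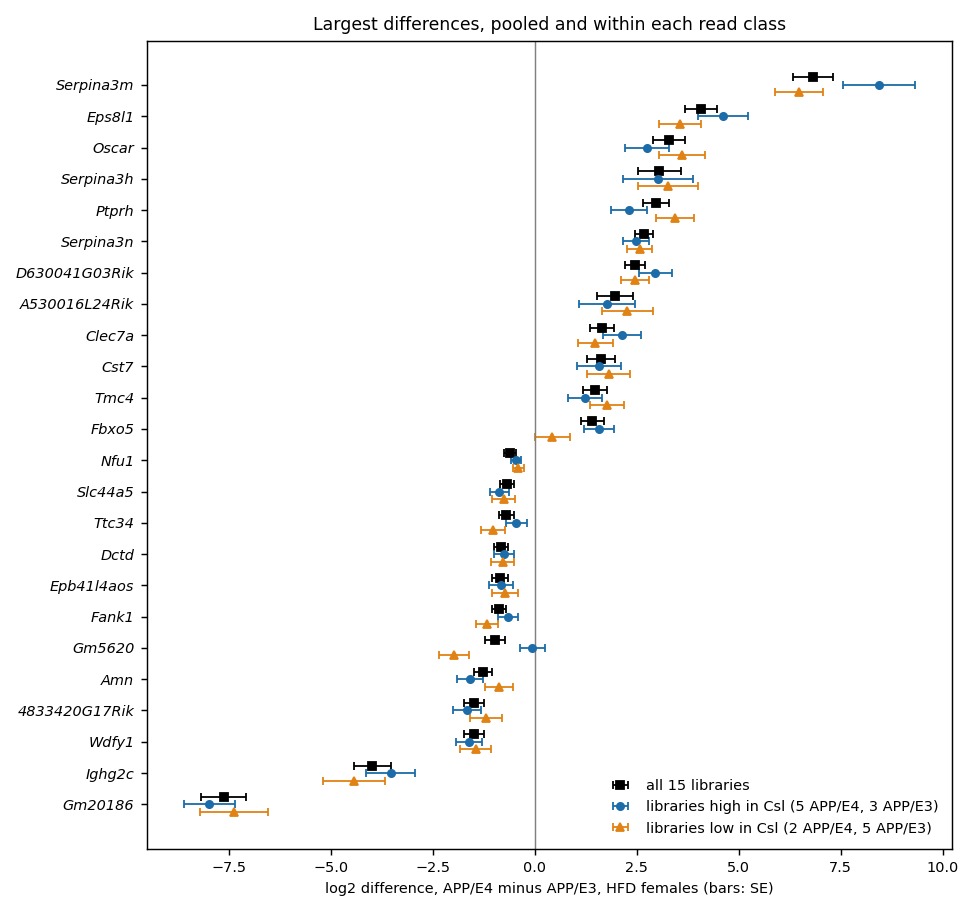
Log2 difference, APP/E4 minus APP/E3, with SE, in HFD females over all 15 libraries (squares), within libraries high in Csl (circles; 5 APP/E4, 3 APP/E3) and within libraries low in Csl (triangles; 2 APP/E4, 5 APP/E3). Shown are the 12 most positive and 12 most negative genes called both without and with read class as a term, with at least 1 CPM in the higher group. Called genes that were not called with that term, such as Col28a1, are therefore left out. The sign is the same within both classes for all 24, and Gm5620 lies at -0.06 within libraries high in Csl and -1.98 within libraries low in Csl.

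Called genes lay side by side more than once. Of 90 called genes placed on a chromosome, 18 had another called gene within 5 tested genes. Among them were the 3 Serpina3 genes and the chromosome 7 trio of Rdh13, Eps8l1 and D630041G03Rik. The rest lay in pairs, such as Cst7 with Apmap. On chromosome 13 Nnt, a mitochondrial transhydrogenase gene (0.45 ± 0.09), lay with 4833420G17Rik (-1.49 ± 0.25). The share of all tested genes with a called gene so near was not counted, so no excess is shown. Chromosome 7, which holds Apoe, had 14 of 1143 tested genes called (1.22%), chromosome 12 8 of 553 (1.45%) and chromosome 6 9 of 744 (1.21%), against 0.605% over all genes. Apoe itself was at 21.2 ± 1.51 CPM in APP/E4 and 19.6 ± 1.49 CPM in APP/E3 (0.12 ± 0.10, adjusted p = 0.658) and App at 4510 ± 720 and 4606 ± 658 CPM (-0.03 ± 0.08, adjusted p = 0.915). A table of mouse genes does not separate human from mouse transcripts, so the labelled genotypes are not checked by these counts. Both genotypes had both copies of Apoe exchanged for human APOE, so the counts at Apoe need not follow the level of human APOE RNA.

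Lists of neuronal, lipid and metabolic genes held no calls in the fit without read class. Of 24 cholesterol synthesis genes 9 were higher (median -0.02), of 25 lipoprotein and cholesterol transport genes 15 (0.04), of 29 fatty acid oxidation genes 16 (0.02), of 46 oxidative phosphorylation genes 8 (-0.06) and of 60 cytosolic ribosome genes 19 (-0.10, or 0.01 with read class as a term, where 1 was called lower). The 20 excitatory and 19 inhibitory neuron genes had medians of 0.07 and -0.01, the 24 immediate early genes -0.16 and the 20 endothelial genes 0.14. The endothelial median was -0.07 within libraries high in Csl, with 9 higher, and 0.26 within libraries low in Csl, with 20 higher. Medians of some other lists here, such as cholesterol synthesis (0.15 and -0.09), also differed in sign between the classes. These gaps were not tested. Of 26 Alzheimer risk genes 21 were higher (median 0.11), and of 20 genes of App and its secretases 12 (0.02).

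The same genotypes were compared in females on normal diet (ND, 7 APP/E4 and 7 APP/E3) and in HFD males (5 APP/E4 and 6 APP/E3), which share no library with the HFD females. Of the 92 genes called in HFD females, 90 had the same sign in ND females and 89 in HFD males. The exceptions were Plk2 and Ets2 in ND females and Znf41-ps, Gm5620 and Ets2 in HFD males. The median absolute log2 difference of the 92 was 0.54 in HFD females, where they were chosen, 0.30 in ND females and 0.32 in HFD males. In ND females 146 genes were called (0.961%), and 28 were shared, 30.4% of the calls in HFD females and 19.2% of those in ND females. In HFD males 34 were called (0.224%), and 23 were shared, 25% of the calls in HFD females and 67.6% of those in HFD males. The 18 genes called in all 3 comparisons included Serpina3n, Serpina3m, Serpina3h, Fyn, Itgax, Eps8l1, Oscar, Ptprh, Mfn2, Pon2, Rdh13, Wdfy1 and Ighg2c.

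Serpina3n averaged 113 ± 24.9 CPM in APP/E4 and 23.1 ± 10.1 CPM in APP/E3 ND females, and 83.3 ± 35.0 and 20.3 ± 4.22 CPM in HFD males. Its log2 difference was 2.28 ± 0.23 in ND females and 2.04 in HFD males. Clec7a differed by 1.33 ± 0.31 in ND females (adjusted p = 0.0213) and by 1.46 in HFD males, where it was not called (adjusted p = 0.130). Mpeg1 differed by 0.57 and 0.45, and Ctsd by 0.24 and 0.19.

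Few differences between these effects were detectable. No gene was called for a genotype effect that differed between HFD and ND females in edgeR (smallest adjusted p = 0.802), DESeq2 or limma voom, while 922 had an unadjusted p under 0.05 in edgeR (6.07%). For Serpina3n the effect was 0.40 ± 0.31 larger on HFD (adjusted p = 0.833), for Clec7a 0.31 ± 0.43 (0.903), for Mpeg1 0.23 ± 0.20 (0.844) and for Hist1h1e, a linker histone gene called in HFD females, 1.15 ± 0.41 (0.802). Called genes in HFD females are not shown to depend on the diet. Against HFD males 1 gene was called (0.00658%), Hccs, an X-linked gene of the enzyme that attaches haem to cytochrome c. It averaged 29.3 ± 3.36 CPM in APP/E4 and 27.1 ± 2.60 CPM in APP/E3 HFD females, and 56.7 ± 5.02 CPM in APP/E4 and 29.1 ± 1.73 CPM in APP/E3 HFD males. The effect in females minus that in males was -0.85 ± 0.12 (adjusted p = 2.94e-05). Levels in ND mice were 29.3 ± 3.69 and 27.6 ± 2.96 CPM in APP/E4 and APP/E3 females and 59.0 ± 4.13 and 26.6 ± 3.145 CPM in APP/E4 and APP/E3 males.

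**Figure D5:**
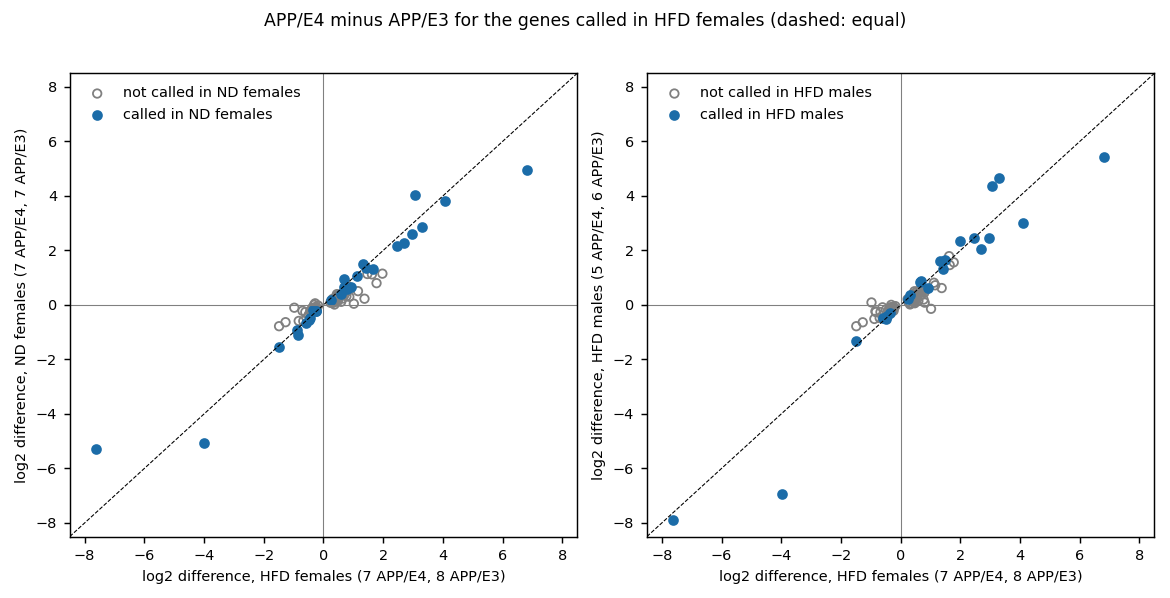
Log2 difference, APP/E4 minus APP/E3, of the 92 genes called in HFD females, plotted against the same difference in ND females (left) and in HFD males (right). Filled points were called in the other comparison as well (28 and 23 genes), and the dashed line marks equal differences. Points lie in the same quadrants for 90 and 89 of the 92 genes, with a median size of 0.30 and 0.32 against 0.54 in HFD females.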

How the data were processed

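RNA from frontal cortex with an integrity number above 8, per the labels, went into mRNA libraries, 1 per mouse. The authors deposited a table of raw counts for 15692 genes in 52 libraries, which has 0 columns of other samples. The submitters' processing notes name Subread, featureCounts, limma, edgeR 3.14.0 and mm9. No source used here gives the annotation, the strand setting or how multiply matching reads were counted, which makes near-identical, overlapping and antisense genes uncertain. The deposited log2 coefficients and p-values of the authors' own diet comparison were not used.

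Groups follow the labelled genotype, diet and gender, and replicate numbers follow deposit order. No pair of libraries within the 2 groups was a duplicate (chi-square per gene at least 3.06 over 49 pairs). In edgeR 4.0.16 (R 4.3.3), filterByExpr kept 15195 genes, TMM factors scaled the counts, and a robust quasi-likelihood model gave each group 1 mean over all 52 libraries. P-values were adjusted by Benjamini-Hochberg over all genes of a contrast, and genes were called at an adjusted p under 0.05. SE is the log2 difference divided by the root of the F statistic. Libraries under 5 CPM of Csl formed the low read class. Spreadsheet dates were turned back into 24 symbols through gene IDs, and 15448 IDs matched a RefSeq table of GRCm38.p6, used for names, chromosomes, gene order and promoters. In counts simulated for this comparison on 15089 genes, 71 of 100 genes changed by 0.5 log2 and 91 of 100 changed by 1 were called, with 6 false calls. The changed genes were drawn only from those above a minimum mean count. The simulated counts held no read class and no tissue differences between libraries. These rates therefore do not cover genes at low counts or shifts of that kind. Intervals and floors cover counting error only.

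The members and lists were chosen with earlier results of these data known, and an earlier comparison of the genotypes over all mice included these 15 libraries. Genes named by rule were the 12 most positive and 12 most negative called both without and with read class and above 1 CPM in the higher group, up to 4 called members per list or else the 2 with the smallest p, genes of the engineered loci and of the Trem2 chain, up to 5 genes per difference of effects, and tissue markers. Itgax, Fyn, Gfap and the others outside this rule were chosen after their values were seen. Alternatives were DESeq2 1.42.0, its size factors, limma voom 3.58.1, no filter, read class as a term or within classes, the 15 libraries alone, and each library left out.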

Additional observations from a re-analysis of the deposited data

Results flagged for a closer look

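Among 310 combinations of a named gene and 1 of the 2 groups, 32 held a library far from the rest of its group. A chance share of about 1 in 20 does not hold for this set. Its tissue markers were chosen because their sums differ between libraries, and other genes after their values were seen. Of the 32, 15 lay in APP/E4 HFD female 4. Its olfactory and inhibitory neuron genes stood apart, with Omp at 123 CPM, Doc2g at 205 CPM, S100a5 at 54.6 CPM, Gad1 at 1401 CPM and Crh at 10.5 CPM, while Sst was low at 66.0 CPM. In the same library Masp1 was at 14.9 CPM, Aqp4 at 254 CPM, Cdkn1a at 74.8 CPM, Igf1 at 40.0 CPM, Adam17 at 25.2 CPM, Eepd1 at 42.8 CPM and Col28a1 at 11.1 CPM, and Cyp46a1 was low at 151 CPM. Fyn reached 180 CPM there, and without this library the log2 difference of Fyn was 0.84 (edgeR adjusted p = 1.64e-09), while the calls of Col28a1 (0.96, adjusted p = 0.386) and Eepd1 (0.33, adjusted p = 0.199) were lost.

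The striatal genes Drd2, Adora2a, Tac1 and Pdyn stood high in APP/E4 HFD female 2, at 64.4, 109, 108 and 30.4 CPM. The choroid plexus gene Ttr was at 651 CPM in APP/E4 HFD female 5 and at 2402 CPM in APP/E3 HFD female 6, where Kl (89.0 CPM), F5 (27.7 CPM) and Folr1 (18.8 CPM) were high too, as was Itgax at 2.24 CPM. In APP/E4 HFD female 6, Fam49a (217 CPM) and Ica1 (23.4 CPM) were low and Slc44a5 was high (10.3 CPM). Among APP/E3 HFD females, Wdfy1 was high in library 5 (59.3 CPM), Doc2g was high (46.1 CPM) and Fank1 low (3.80 CPM) in library 4, and Camk2a was high in library 2 (5371 CPM).

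The genotype effect on Hccs differed between HFD females and HFD males, by -0.85 ± 0.12 on the log2 scale in edgeR, with no overlap between the genotypes in males (50.9 to 63.3 CPM in APP/E4, 25.8 to 30.3 CPM in APP/E3) and with overlap in females.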

How the results depend on the processing

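For APP/E4 against APP/E3 in HFD females, 92 genes were called. The count was 154 with read class as a term (80 shared), 142 in DESeq2 (92 shared), 33 in the 15 libraries alone (32 shared), 53 there with read class as a term (40 shared), 33 within libraries high in Csl (20 shared), 15 within libraries low in Csl (13 shared) and 41 without the 4 libraries over 100 CPM of Ttr (37 shared), an alternative chosen after seeing the data. The fits to fewer libraries have less power by construction. The cause of each of these shifts in count was not tested. Leaving out 1 library gave 59 to 116 calls, and the count moved by over 1.5 times without APP/E4 HFD female 5 (59) and without APP/E3 HFD female 1 or 7 (61 each). It was 87 with DESeq2 size factors, 97 in voom and 89 without a filter. The difference from HFD males gave 2 calls in DESeq2 against 1. No result changed direction among the 1542 alternatives of the 62 called genes named here. All of these alternatives reuse libraries in which the genes were called, so this is a description. List medians shifted most for olfactory tissue genes, with 1.30 in all libraries and -0.13 without APP/E4 HFD female 4, and for choroid plexus genes, with -0.72 in all libraries and 0.89 without APP/E3 HFD female 6. At 3 counts per 0.281 to 0.423 CPM, genes under 1 CPM carry wide counting error. No paired analysis was possible because the labels carry no replicate numbers that the groups share.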

Other observations

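Wdfy1 was even across APP/E3 HFD females and uneven across the other APP/E3 groups. In APP/E4 it lay between 12.96 and 19.6 CPM in every library of every diet and sex. In APP/E3 it lay between 35.8 and 59.3 CPM in HFD females, but between 13.3 and 68.0 CPM in ND females, 14.8 and 68.3 CPM in HFD males and 15.03 and 42.7 CPM in ND males, so that some APP/E3 libraries of those groups stood at the APP/E4 level.

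Fam205c, chosen after its values were seen, followed the read class within APP/E3. It averaged 10.4 ± 4.39 CPM in APP/E4 and 4.42 ± 0.71 CPM in APP/E3 libraries high in Csl, and 11.02 and 0.169 CPM in those low in Csl, and its overall difference (2.71 ± 0.70) was not called in edgeR (adjusted p = 0.0543). The clock output gene Dbp differed by -0.49 ± 0.14 (adjusted p = 0.0766), with 33.8 ± 5.90 CPM in APP/E4 and 47.5 ± 10.5 CPM in APP/E3, and none of the 18 clock genes tested was called.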
